A study of Mus musculus with 18 samples.

Results

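The 9 genes described here encode the enzymes of the hepatic methionine cycle and of transsulfuration: Mat1a, Gnmt, Pemt, Ahcy, Bhmt, Bhmt2, Cbs, Cth and Cdo1. They were picked by name from the 54532 genes of a liver RNA-seq table, with results of these same mice already known, so their differences between groups are given as a description and carry no test of their own. All 9 passed the filter on low values, a mean of at least 1 FPKM (fragments scaled to gene length and library size) over 18 mice, as did 10216 genes of the table. The study asked how Ramulus Mori (Sangzhi) alkaloids, SZ-A, a mulberry twig preparation used against type 2 diabetes, act on the obese and fatty liver.

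Livers came from 3 groups of 6 male C57BL/6J mice each, wild type throughout. The mice were 6 weeks old on arrival. NC mice ate normal chow and are recorded with 14 weeks of feeding and no treatment time. Whether the sequenced NC mice received saline is not stated. HFD mice ate a high-fat diet for 14 weeks and then received saline while the diet went on, and SZ-A mice had the same diet and then SZ-A in place of saline. The last phase lasted 8 weeks by the deposited description and 6 weeks by the methods, and the dose and route of the sequenced SZ-A mice are not given in the sources used here. All mice were fasted overnight before death, so every level below is a fasting level. The diet label of NC6 reads high-fat diet while its title reads chow. It is counted with NC here, as titled.

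In the methionine cycle, methionine adenosyltransferase makes S-adenosylmethionine, methyltransferases spend its methyl group, and the remaining S-adenosylhomocysteine is split to adenosine and homocysteine. Homocysteine is either methylated back to methionine, in liver largely with betaine as the donor, or passed through cystathionine to cysteine by transsulfuration, which feeds glutathione, taurine and sulfide. The liver is the main site of this metabolism in the body, and loss of Mat1a or Gnmt in mice is known to lead to fatty liver.

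The deposited table places the genes on GRCm38 and counts each over all of its annotated exons. On the minus strand are Gnmt (ENSMUSG00000002769) at chr17:46725664-46729168, Cbs (ENSMUSG00000024039) at chr17:31612623-31637199, Pemt (ENSMUSG00000000301) at chr11:59970614-60046489, Ahcy (ENSMUSG00000027597) at chr2:155059310-155074497 and Cth (ENSMUSG00000028179) at chr3:157894248-157925077. Also on the minus strand are Bhmt (ENSMUSG00000074768) at chr13:93616675-93637961, its neighbour Bhmt2 (ENSMUSG00000042118) at chr13:93655720-93674302, and Cdo1 (ENSMUSG00000033022) at chr18:46713205-46728342. On the plus strand is Mat1a (ENSMUSG00000037798) at chr14:41105035-41124412. The summed exon length used for FPKM ran from 1206 bases for Gnmt to 5758 for Bhmt. The basic GENCODE annotation held 2490 exonic bases for Bhmt, fewer than used here, and 6265 for Cbs, more than the 3343 used here. Ranks of FPKM between genes, and ratios of one gene to another, therefore depend on the lengths used.

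Depth was even: fragments on genes worked back from the deposited values totalled 17163191 to 20493907 per mouse. Mitochondrial genes took 3.14% to 4.87% of them. NC5 was the mouse least like the median profile of its group (r = 0.96 across genes), and counts are given without it and without NC6 where they bear on a result. The hepatocyte genes Alb, Ttr and Hnf4a were detected in every group, at means of at least 21469, 3168 and 153 FPKM.

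The 9 genes spanned a wide range of levels. In NC the order of mean FPKM, which is scaled per gene length, ran from Mat1a at 3241 through Gnmt at 1657, Bhmt at 1344, Cdo1 at 1143, Ahcy at 1089, Cth at 435, Cbs at 165 and Bhmt2 at 112 to Pemt at 101. Neighbours from Gnmt down to Ahcy lay within the SD of one another, and so did Bhmt2 and Pemt. The NC range of Cth overlapped with neither neighbour. Mat1a and Gnmt differed in their means by more than the SD of either, as did Cbs and Bhmt2, but the NC ranges overlapped in both pairs. In HFD the order changed in the middle: Cdo1 at 876 stood level with Gnmt at 906, and Bhmt at 595 level with Ahcy at 605. Pemt, the lowest in NC, ranked above Cbs and Bhmt2 in HFD, at 101 against 85.6 and 78.2. Together the 9 genes took 2.13% ± 0.300 of all FPKM in NC (SD, n = 6), 1.29% ± 0.115 in HFD and 1.33% ± 0.184 in SZ-A mice.

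**Figure D1:**
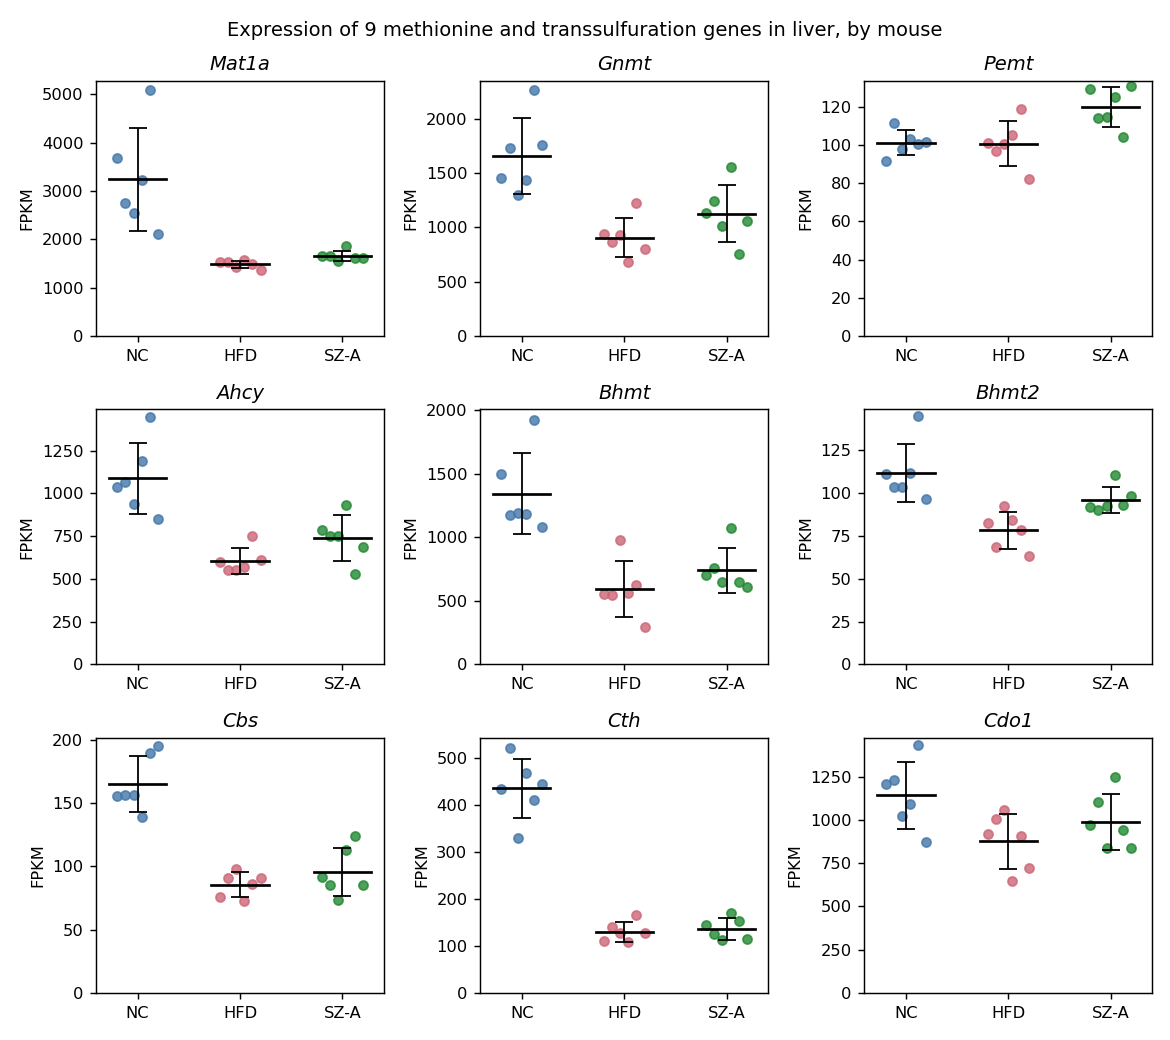
FPKM of each gene (y axis, from 0, one scale per panel) in every mouse (points) of the NC, HFD and SZ-A groups; the long bar is the mean and the whiskers are ± 1 SD, n = 6. Cth lies between 330 and 521 in NC and between 108 and 169 in the other groups, while Pemt overlaps in all 3 groups.

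The first comparison, HFD against NC, sets the high-fat diet against chow. Any difference in saline handling or age between these groups cannot be told apart from the diet. Of the 9 genes, 7 were called lower in HFD (Cth, Bhmt, Mat1a, Cbs, Gnmt, Ahcy and Bhmt2), where called means a Benjamini-Hochberg adjusted p under 0.05 in limma over all 10216 genes and a fold change over 1.2, and none was called higher. Over all genes 9.49% were called lower and 10.7% higher. The same 7 lay wholly below the NC mice, as did 4.97% of all genes. Since the genes were chosen with this contrast known, nothing is read from these shares. In whole liver, fewer cells of a type and less RNA per cell cannot be told apart. The median log2 fold change was -0.87 for the 9 genes and -0.03 for all genes. Without NC5 the count stayed 7, and without NC6 it was 8, with Cdo1 added.

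Mat1a, which makes S-adenosylmethionine in the adult liver, had the highest mean FPKM of the 9 in every group. Its FPKM ranged from 2120 through a median of 2997 to 5092 in NC and from 1370 through 1512 to 1565 in HFD. Every HFD mouse lay below every NC mouse, and the HFD mice sat close together (SD 73.1) where the NC mice were spread out (SD 1059). The log2 fold change, on the log2(FPKM + 0.1) scale used throughout, was -1.07 ± 0.17 (SE), or 0.477 of the NC level, and it was -0.93 without NC5, the highest NC mouse.

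Gnmt, the glycine N-methyltransferase that disposes of excess S-adenosylmethionine, ran from 1296 through 1594 to 2269 FPKM in NC and from 683 through 894 to 1228 in HFD. The groups did not overlap, and the gap between the highest HFD and the lowest NC mouse was small beside the spread of either group. Its log2 fold change was -0.87 ± 0.16. Pemt, which uses S-adenosylmethionine to methylate phosphatidylethanolamine to phosphatidylcholine, was the exception among the 9. It ranged from 91.8 through 101 to 112 FPKM in NC and from 82.0 through 101 to 119 in HFD, so that the HFD mice spanned the whole NC range. The log2 fold change was -0.01 ± 0.09 and changed sign with the scaling, to 0.18 after rescaling every mouse to a common FPKM sum.

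Ahcy hydrolyses S-adenosylhomocysteine, the product that inhibits methyltransferases. Its 6 NC mice ran from 853 through 1053 to 1445 FPKM and its 6 HFD mice from 550 through 585 to 752, with no overlap. The log2 fold change was -0.83 ± 0.13. HFD5 held the top value of 752, and the other HFD mice were at 609 or below.

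Bhmt and Bhmt2, which return homocysteine to methionine with betaine and with S-methylmethionine as methyl donors, are neighbours on chromosome 13. Bhmt ran from 1082 through 1189 to 1925 FPKM in NC and from 295 through 560 to 979 in HFD. HFD6 at 295 and HFD3 at 979 lay far to either side of the other HFD mice, which ran from 550 to 626, and HFD3 came close to the NC mice. Its log2 fold change was -1.23 ± 0.23, the widest error of the 9. Bhmt2 ran from 96.5 through 107 to 145 FPKM in NC and from 63.2 through 80.2 to 92.5 in HFD. It had the smallest change of the genes called, -0.51 ± 0.11, or 0.700 of the NC level. The ratio of Bhmt to Bhmt2 was 11.9 ± 1.19 in NC (SD, n = 6) and 7.46 ± 1.96 in HFD.

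Cbs and Cth carry out transsulfuration, Cbs joining homocysteine and serine to cystathionine and Cth cleaving cystathionine to cysteine. Cbs ran from 139 through 156 to 195 FPKM in NC and from 72.6 through 88.3 to 97.9 in HFD, well apart. Its log2 fold change was -0.95 ± 0.10. Cth showed the largest difference of the 9, from 330 through 439 to 521 FPKM in NC and from 108 through 127 to 166 in HFD. The HFD level was 0.299 of the NC level, a log2 fold change of -1.74 ± 0.13 that ranked 40 from the lowest among the 10216 genes. Cdo1, the cysteine dioxygenase that starts cysteine breakdown towards taurine, ran from 872 through 1149 to 1434 FPKM in NC and from 646 through 912 to 1056 in HFD. The groups overlapped, and its log2 fold change of -0.39 ± 0.15 was not called.

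**Figure D2:**
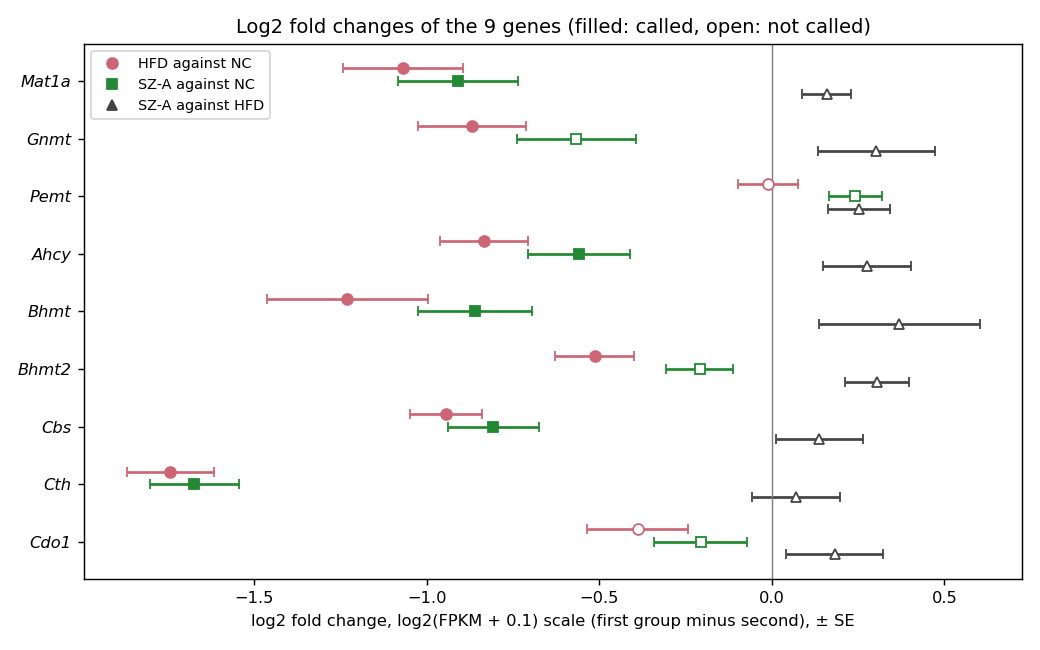
Log2 fold changes of the 9 genes (x axis, log2(FPKM + 0.1) scale, first group minus second; whiskers ± SE, n = 6 per group) for HFD against NC (circles), SZ-A against NC (squares) and SZ-A against HFD (triangles), filled where called. Cth lies farthest to the left, at -1.74 and -1.67, and no triangle is filled.

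These directions held under every scaling tried for 8 of the 9 genes, all but Pemt. Rescaling to a common FPKM sum moved the median log2 fold change of all genes from -0.03 to 0.15, a shift of the whole table, and under it the 7 genes were still called. Requiring a fold over 2 left 3 of the 7, Cth, Bhmt and Mat1a.

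The bases before the starts of Gnmt, Ahcy and Bhmt2 are shown because Gnmt and Ahcy catalyse consecutive steps and varied together between mice, whereas Bhmt2 had the smallest change of the genes called. The set of RefSeq starts used here, build GRCm38.p6, held 6 of the 9 genes. It lacked Mat1a, Cth and Cdo1, which is a limit of this set and not of RefSeq. The 3 shown are those whose RefSeq start lies within 3 bases of the gene's end in the deposited table. Each line gives the 250 bases upstream of the start on the minus strand, 5′ to 3′, with motif matches in capitals: Gnmt at chr17:46729166-46729415, Ahcy at chr2:155074498-155074747 and Bhmt2 at chr13:93674303-93674552.
Gnmt: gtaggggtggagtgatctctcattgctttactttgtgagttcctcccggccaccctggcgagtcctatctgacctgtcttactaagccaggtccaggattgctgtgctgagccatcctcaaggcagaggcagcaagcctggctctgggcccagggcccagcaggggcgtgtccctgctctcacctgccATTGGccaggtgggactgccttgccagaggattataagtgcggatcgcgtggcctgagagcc
Ahcy: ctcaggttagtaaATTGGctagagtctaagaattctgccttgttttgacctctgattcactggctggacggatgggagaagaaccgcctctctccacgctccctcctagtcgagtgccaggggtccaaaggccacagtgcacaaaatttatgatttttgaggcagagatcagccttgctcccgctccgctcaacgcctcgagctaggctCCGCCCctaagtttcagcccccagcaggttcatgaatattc
Bhmt2: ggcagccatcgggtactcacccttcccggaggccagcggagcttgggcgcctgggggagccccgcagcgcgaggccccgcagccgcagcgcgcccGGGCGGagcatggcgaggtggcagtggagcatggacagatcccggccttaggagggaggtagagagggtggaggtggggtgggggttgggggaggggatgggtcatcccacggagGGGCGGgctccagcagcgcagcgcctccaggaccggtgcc
The motifs searched on both strands were the CCAAT box (CCAAT), the TATA box (TATAAA), the GC box (GGGCGG), the E-box (CACGTG), a glucocorticoid receptor half-site (AGAACA), a C/EBP and ATF4 composite (TGATGNAA) and an antioxidant response element (TGACNNNGC), and no matches overlapped in these 3 windows. Gnmt held a reversed CCAAT box, first base at -62 from the start. Ahcy held a reversed CCAAT box at -237 and a reversed GC box at -41. Bhmt2 held GC boxes at -155 and -40, and its window had the highest share of G and C, 74%, against 60.4% for Gnmt and 52.8% for Ahcy. Among 32851 windows of the same length, 33.85% held a CCAAT box and 32.74% a GC box, so these matches are common. A match is a description of letters only.

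The second comparison, SZ-A against HFD, asks what the alkaloids changed on the high-fat diet. None of the 9 genes was called by limma, beside 15 of all genes (0.147%). Voom on worked-back fragments called none of the 9 either, beside 68 of all genes with plain totals and 32 with median-ratio sizes. The paper, with its own count test (DESeq2) at the same adjusted p and fold, reported far more genes in this comparison. The lack of a call here is therefore not evidence that SZ-A left a gene unchanged. At an unadjusted p under 0.05, limma counted 4 of the 9 (Mat1a, Bhmt2, Ahcy and Pemt), beside 14.83% of all genes. All 9 means were higher in SZ-A than in HFD on the deposited values, while after rescaling to a common FPKM sum those of Cth, Cbs and Mat1a were lower. The median log2 fold change was 0.25 for the 9 genes and 0.03 for all genes. All 9 overlapped between the groups, where 0.793% of all genes lay wholly above HFD.

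The largest log2 differences were those of Bhmt, 0.37 ± 0.23 (SE), Bhmt2, 0.30 ± 0.09, and Gnmt, 0.30 ± 0.17. Bhmt2 ran from 90.2 through 92.7 to 110 FPKM in SZ-A, and 3 of its SZ-A mice fell within the HFD range that ended at 92.5. Bhmt ran from 609 through 674 to 1077 in SZ-A, with SZ-A4 at the top. Gnmt ran from 754 through 1094 to 1552 in SZ-A, a wider range than in HFD.

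Ahcy ran from 526 through 750 to 933 FPKM in SZ-A, reaching both below and above the HFD mice, with a log2 difference of 0.28 ± 0.13. Pemt, not called in the diet comparison, ran from 104 through 120 to 131 FPKM, and its log2 difference was 0.25 ± 0.09. Cdo1 ran from 836 through 956 to 1250, at 0.18 ± 0.14.

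The genes nearest to 0 were Mat1a, Cbs and Cth. Mat1a ran from 1543 through 1639 to 1861 FPKM in SZ-A, still narrow, at a log2 difference of 0.16 ± 0.07. Cbs ran from 73.2 through 88.4 to 124, at 0.14 ± 0.13. Cth ran from 112 through 135 to 169, nearly the HFD range, at 0.07 ± 0.13. These errors leave room for modest differences in either direction for Cbs and Cth.

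The third comparison, SZ-A against NC, shares its NC mice with the first and its SZ-A mice with the second, so its values stand beside theirs and add no independent evidence. Of the 9 genes, 5 were called lower in SZ-A (Cth, Mat1a, Bhmt, Cbs and Ahcy), beside 4.3% of all genes, and none was called higher, beside 5.31%. The log2 difference was -1.67 ± 0.13 (SE) for Cth, -0.91 ± 0.18 for Mat1a, -0.86 ± 0.17 for Bhmt and -0.81 ± 0.13 for Cbs, all 4 with no overlap with the NC mice, as for 2.67% of all genes. Ahcy, at -0.56 ± 0.15, overlapped with NC, and its call was lost when any one of NC1, NC2, NC4, SZ-A1, SZ-A2, SZ-A3 or SZ-A6 was left out. Gnmt had a log2 difference of -0.57 ± 0.17, as large as that of Ahcy, and was not called, though it was called without SZ-A4. Bhmt2 stood at -0.21 ± 0.10 and Cdo1 at -0.21 ± 0.13. Pemt stood at 0.24 ± 0.08, the only one of the 9 with a higher mean in SZ-A than in NC, and was called without SZ-A5. Without NC5 and without NC6 the count stayed at 5.

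Individual mice were high or low for many of the 9 genes at once. NC5 was the highest NC mouse for 6 genes (Mat1a, Gnmt, Ahcy, Bhmt, Bhmt2 and Cdo1), and NC6, the mouse with the contradicting diet label, was the lowest for 5 (Mat1a, Ahcy, Bhmt, Bhmt2 and Cdo1) and the highest for Cbs. NC6 lay above every HFD mouse for each of the 7 genes called, which repeats the lack of overlap given above. The genes were chosen with this contrast known, so it does not settle the diet label of NC6. SZ-A4 was the highest SZ-A mouse for 7 genes, all but Cbs and Pemt. In HFD the lowest values fell mostly to HFD4 and HFD6, with 4 genes each.

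With each group's mean removed, 33 of the 36 pairs among the 9 genes correlated above 0 over the 18 mice. Their Pearson r ranged from -0.22 for Cbs with Pemt to 0.84 for Bhmt with Bhmt2, with a median of 0.39, beside a median of 0.00 over all pairs of tested genes. These values are descriptions with no test, since the mice share library preparation and the scaling of FPKM. The pairs that share a metabolite as product and substrate ranged widely. Gnmt with Ahcy reached 0.75, Bhmt2 with Mat1a 0.70, Bhmt with Mat1a 0.52, Cbs with Cth 0.50, Ahcy with Bhmt2 0.48, Cth with Cdo1 0.45, Ahcy with Pemt 0.41 and Ahcy with Bhmt 0.38. The others were Mat1a with Gnmt at 0.35, Mat1a with Pemt at 0.02 and Ahcy with Cbs at -0.17. Pairs that are not adjacent reached 0.73 for Bhmt with Cdo1 and 0.65 for Mat1a with Ahcy. The lowest values with Mat1a were those of Pemt (0.02), Cbs (0.04) and Cth (0.08). Without NC5, over 17 mice, 32 pairs stayed above 0 with a median of 0.36, and Bhmt with Bhmt2 stood at 0.83, Gnmt with Ahcy at 0.69 and Mat1a with Gnmt at 0.02.

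**Figure D3:**
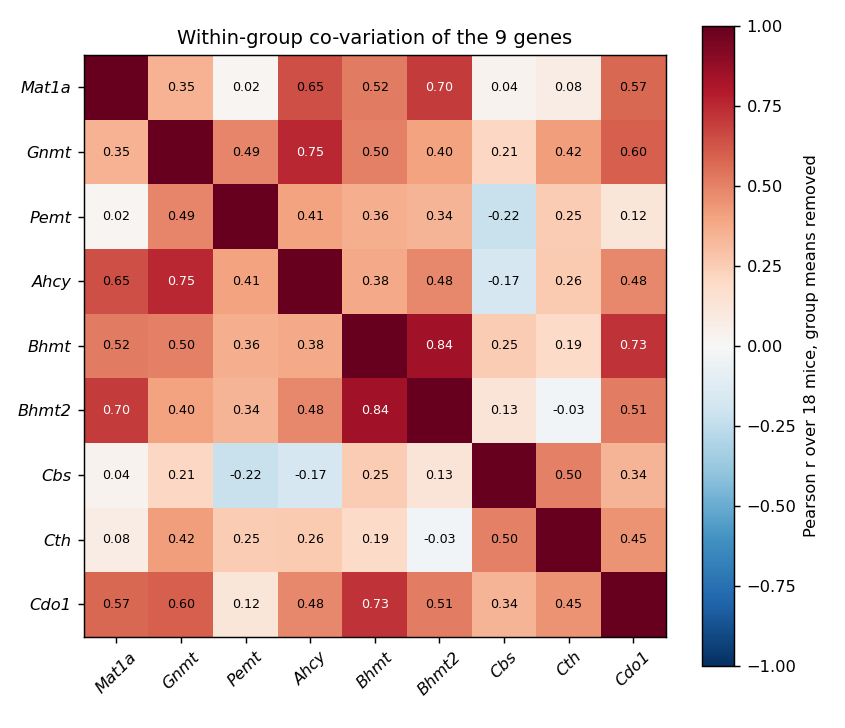
Pearson r between the 9 genes (rows and columns) over 18 mice, on log2(FPKM + 0.1) with each group's mean removed; red is above 0 and blue below, on a scale from -1 to 1. Bhmt with Bhmt2 is the darkest pair at 0.84, and the 3 pairs below 0 are Cbs with Pemt, Cbs with Ahcy and Cth with Bhmt2.

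Over all tested genes, the patterns most like each of the 9 by the same r were as follows. Mat1a went with Arg1, the arginase of the urea cycle, at 0.95, then with Rnf149 at 0.92 and Aass, a lysine-degrading enzyme, at 0.90. Mat1a and Arg1 both varied most among the NC mice, with SDs of 1059 and 414 FPKM. Among HFD mice these SDs were 73.1 and 21.3, and among SZ-A mice 108 and 51.8. The r of Mat1a with Arg1 therefore rests largely on the NC mice. Gnmt went with Apoa2 at 0.86 and Gckr, the glucokinase regulator, at 0.85. For Pemt the closest were Adh5 at 0.91, Proc at 0.88 and Agmat at 0.84. Bhmt2 stood closest to Isoc2b at 0.84, Bhmt at 0.84 and Hacl1 at 0.83, Cth to Itih2 at 0.85, Ergic2 at 0.76 and Mpp5 at 0.75, Cbs to 2310015A10Rik at 0.82, Gm8186 at 0.81 and Tsen15 at 0.77, and Cdo1 to Ctu2 at 0.82, Galt at 0.80 and Adk, the adenosine kinase that clears the other product of Ahcy, at 0.79.

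For Bhmt and Ahcy the closest genes were near copies of themselves. Bhmt went with Gm5096 at 0.99, Bhmt-ps1 at 0.89 and Galt at 0.84, and Ahcy with Gm4737 at 0.97, Gm9826 at 0.92 and Igfbp4 at 0.91. Of the 1994 windows of 100 bases in the longest-sharing Gm4737 transcript, 1647 occur exactly in Ahcy, and of 1767 in Gm5096, 983 occur in Bhmt. Their fragments came to 16.0% to 19.1% of those of Ahcy and 10.8% to 12.8% of those of Bhmt. Reads could be divided between copy and gene in counting, so the levels of Ahcy and Bhmt are uncertain. These shares do not bound the error, and its size was not tested. Adding the fragments of all genes with shared windows, a check chosen after the data were seen, left the HFD to NC log2 difference of Bhmt at -1.23. It moved that of Ahcy from -0.83 to -0.82 and that of Bhmt2, the most, from -0.51 to -0.46. For Bhmt2 the added fragments were those of Cog6, which is not a near copy, with 28 of 2627 windows shared. Cog6 itself had a log2 difference of 0.01. Bhmt and Bhmt2 themselves share no window of 100 bases. The antisense gene Gm15622 overlaps Bhmt by 187 bases, and its fragments were at most 0.0995% of those of Bhmt.

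Around the 9 enzymes, 98 genes of 7 neighbouring lists were taken by role, of which 82 passed the filter. In HFD against NC, 15 of the 82 were called lower and 13 higher, a split that turned to 6 and 25 after rescaling to a common FPKM sum. Their median log2 fold change was 0.03, beside -0.03 for all genes and -0.87 for the 9. In SZ-A against HFD limma called none of the 82, with 7 at an unadjusted p under 0.05 and none called by voom. In SZ-A against NC 7 were called lower and 8 higher.

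Next to Mat1a, the synthetase Mat2a, the form of tissues outside the liver, was low. Its FPKM had a median of 21.3 for NC (17.3 to 23.0), 27.0 for HFD (20.2 to 41.9) and 29.0 for SZ-A (26.3 to 31.4). It rose in SZ-A against NC, by 0.47 on the log2 scale (limma adjusted p = 0.0039), and in HFD against NC its 0.38 did not pass (limma adjusted p = 0.0836), though it was called after rescaling and without HFD2. In the list of other S-adenosylmethionine synthesis, hydrolysis and salvage genes, 2 of 14 fell in HFD (Mri1 and Ahcyl1) and 2 rose (Sat1, which acetylates polyamines, and Enoph1). The Ahcy-like Ahcyl1 stood at -0.28 (limma adjusted p = 0.0293). Neither Mri1 nor Ahcyl1 was called after rescaling. With each of the 12 mice left out in turn, the call was lost in 7 of the fits for Ahcyl1 and in 8 for Enoph1.

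Among the small-molecule methyltransferases, which use S-adenosylmethionine as Gnmt and Pemt do, 2 of 13 fell and 5 rose. Nnmt, which methylates nicotinamide, fell from 195 ± 103 to 75.0 ± 22.9 FPKM in HFD, by 1.29 on the log2 scale (limma adjusted p = 0.0081). Gamt, which makes creatine, rose from 42.4 ± 16.6 to 98.5 ± 24.4 FPKM, by 1.26 (adjusted p = 0.00376 in limma). Inmt (1.43), Hnmt and Mettl7a1 (0.63) rose as well and the arsenite methyltransferase As3mt fell (-0.97), all 4 also after rescaling.

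In the folate cycle, which supplies the other methyl route from homocysteine, 2 of 17 fell and 1 rose in HFD. Mtr, the methionine synthase of that route, was near the filter at 0.949 FPKM in NC and 1.09 in HFD, with a log2 difference of 0.21 that did not pass (limma adjusted p = 0.386). Gldc, of the glycine cleavage system, fell by 0.83 (adjusted p = 0.00894 in limma), and Shmt2, the mitochondrial serine hydroxymethyltransferase, rose by 0.42 (adjusted p = 0.00271 in limma).

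The betaine and choline oxidation genes, which supply the methyl donor of Bhmt and use what it leaves, had 2 of 8 called lower in HFD and none higher. Slc6a12, a betaine transporter, fell by 0.46 on the log2 scale (limma adjusted p = 0.0138), and Dmgdh, the dimethylglycine dehydrogenase that acts on the product of Bhmt, fell by 0.36 (limma adjusted p = 0.0434). After rescaling both were still lower, at -0.27 and -0.17, and neither was called. The call of Dmgdh was lost in 10 of the 12 fits that each left out 1 mouse. Chdh, the choline dehydrogenase, stood at 43.4 ± 11.1 FPKM in NC and 39.3 ± 2.05 in HFD, with a log2 difference of -0.09 that did not pass. Without NC5, the lowest NC mouse at 22.6 FPKM, Chdh was called lower, at -0.27 (limma adjusted p = 0.0205). Sardh, the sarcosine dehydrogenase that acts on the product of Gnmt, stood at 183 ± 22.7 and 195 ± 29.2, a log2 difference of 0.09 that did not pass either.

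Beyond cysteine, 2 of 11 genes of cysteine, taurine and sulfide metabolism fell in HFD and 2 rose. Csad, which follows Cdo1 on the way to taurine, fell from 76.4 ± 19.8 to 36.5 ± 16.5 FPKM (log2 difference -1.19, limma adjusted p = 0.0211), and not after rescaling. Got1, the cytosolic aspartate aminotransferase, fell from 283 ± 134 to 55.7 ± 15.8 FPKM, by 2.27 (limma adjusted p = 0.000157). Sqor, the mitochondrial sulfide oxidase, rose by 0.55, and Fmo1, which can form taurine from hypotaurine, rose by 0.53.

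Of the glutathione genes, 3 of 10 fell (Slc25a39, Lap3 and Gsr), by 0.31 to 0.37, and 2 rose. After rescaling the 3 were still lower, but none was called. Gclc, the catalytic subunit of the limiting step of glutathione synthesis, rose from 56.8 ± 17.7 to 92.0 ± 11.4 FPKM (log2 difference 0.76, limma adjusted p = 0.0216). Chac1, which degrades glutathione, rose from 0.376 ± 0.186 to 4.41 ± 1.58 FPKM, by 3.26 (limma adjusted p = 2.78e-05). In the list of serine synthesis and ATF4 target genes, Asns, the asparagine synthetase, fell from 4.33 ± 1.14 to 0.326 ± 0.223 FPKM (log2 difference -3.52), and the transcription factor Atf5 fell by 1.49 while Atf3 rose by 2.40. Atf4 itself stood at -0.01 and did not pass.

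In SZ-A against HFD the largest of these log2 differences were those of Atf3 (-1.05), Asns (0.66), Atf5 (0.57) and Hnmt (-0.55), none past the threshold. Hnmt, the histamine methyltransferase, ran from 19.6 ± 2.49 FPKM in HFD to 13.7 ± 3.84 in SZ-A (limma adjusted p = 0.138), and was called after rescaling and without SZ-A2.

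**Figure D4:**
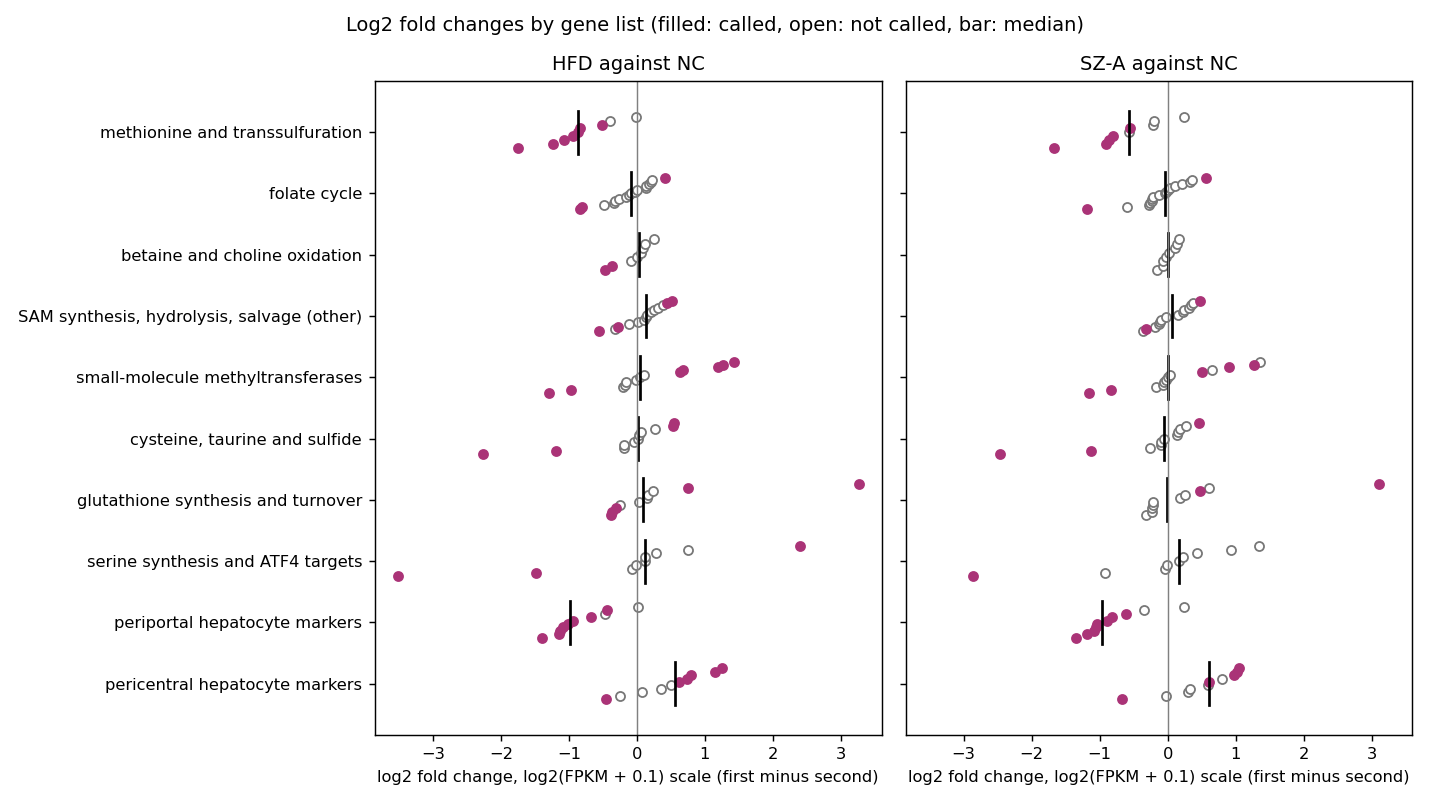
Log2 fold changes (x axis, log2(FPKM + 0.1) scale) of the 9 genes, of the 7 neighbouring lists and of periportal and pericentral hepatocyte markers, HFD against NC on the left and SZ-A against NC on the right; each point is a gene, filled where called and spread vertically only for sight, the bar is the list's median, and SAM is S-adenosylmethionine. The medians of the 9 genes (-0.87 and -0.57) and of the periportal markers (-0.98 and -0.96) lie left of 0, and those of the 7 neighbouring lists between -0.09 and 0.16.

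Markers of other liver cells and of hepatocyte zones moved with the diet beside the 9 genes. Of 10 periportal hepatocyte markers, 8 were called lower in HFD and 8 in SZ-A against NC (Cps1 -1.40, Pck1 -1.15 and Arg1 -1.14 in HFD), none in SZ-A against HFD. Their FPKM summed per mouse gave NC values between 29566 and 43597, HFD values between 18575 and 32771, and SZ-A values between 20718 and 40865. Alb, not called in any comparison, was by far the largest part of these sums, at means of 29448 in NC and 21469 in HFD. Its SZ-A mean was 24030. These sums are therefore mostly a level of Alb, which is not specific to the periportal list here. Of 10 pericentral markers, 5 were called higher in HFD, Glul (the glutamine synthetase, 0.62) among them, and 1 lower, Oat (-0.46). Their sums lay between 5750 and 6998 for NC, 5703 and 7926 for HFD, and 5530 and 8639 for SZ-A. Cyp2e1, not called, was the largest part of these sums, at means of 4678 in NC and 4921 in HFD. Of 9 general hepatocyte markers 2 were called lower in HFD, with sums between 49400 and 71956 for NC and 34735 and 56607 for HFD.

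Stellate cell markers were called higher in HFD for 6 of 9 tested. Their sums lay between 37.6 and 57.5 FPKM for NC, 43.2 and 101 for HFD, and 39.3 and 58.9 for SZ-A. Dcn, not called, held a large part of these sums, at means of 31.2 in NC and 39.6 in HFD. Kupffer cell and macrophage markers were called higher for 3 of 8, with sums between 91.5 and 195 for NC, 147 and 304 for HFD, and 170 and 217 for SZ-A, and 1 of 8 was called lower in SZ-A against HFD. Endothelial markers were called higher for 1 of 9, with sums between 67.8 and 85.9 for NC and 72.2 and 90.0 for HFD, and adipocyte markers for 2 of 4, with sums between 36.3 and 119 for NC and 56.0 and 167 for HFD. Cholangiocyte and B cell markers had 2 and 1 genes past the filter, neither list with a call in HFD against NC, and no T cell marker passed it. The adipocyte sums for SZ-A lay between 10.8 and 59.3. Of the adipocyte markers, Lep was at 0 in all NC and all SZ-A mice, while the 4 tested were detected in both groups. Their mean FPKM in NC and in SZ-A was 2.91 and 7.54 for Cfd, 54.4 and 18.7 for Cidec, 2.51 and 2.52 for Lipe, and 1.40 and 1.96 for Fabp4. The part of these cell types and zones in the levels of the 9 genes was not tested.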

How the data were processed

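RNA was measured in the livers of 18 mice, 6 per group, by poly-A selected, paired-end sequencing (150 bp, NovaSeq). Per the study's methods and the submitters' processing notes, the authors aligned reads to GRCm38 (mm10) with HISAT2 2.0.5 and counted with featureCounts 1.5.0-p3. The strand setting and the making of FPKM are not given in the sources used here. The authors deposited 1 table of FPKM with gene length, position and biotype. Besides gene length, the FPKM denominator was not the plain total of fragments. Divided by that total, it ran from 0.933 to 1.02 in NC (median 0.979), 0.998 to 1.14 in HFD (median 1.11) and 0.972 to 1.05 in SZ-A mice (median 1.01), so FPKM puts HFD lower relative to NC than plain totals would. Rescaling to a common FPKM sum and voom on plain totals were the alternatives without this factor.

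From it, log2(FPKM + 0.1) of the 10216 genes with a mean of at least 1 FPKM went into limma 3.58.1 under R 4.3.3 (lmFit, eBayes with trend), on the 2 groups of each comparison, with no covariate. A call needed a fold over 1.2 and a p under 0.05 after Benjamini-Hochberg adjustment over all genes tested. The fit was tested on simulated data. The authors' own count test was not repeated, since the deposited unit is FPKM. FPKM times length gave whole fragments for at least 99.9% of values (tolerance 0.05 of a fragment), and these were tested with voom as an alternative. No mice of the same group were duplicates (lowest chi-square per degree of freedom 20.25), and no label names a batch. Pairs of mice from different groups were not compared in this way.

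The 9 genes, the 7 pathway lists and the 10 marker lists were chosen with earlier results of these data known. Named were the 9 genes, the genes next to them in the pathway, up to 3 called genes with the largest changes per list and comparison, and the 3 genes most like each of the 9. Ahcyl1, Hnmt, Mettl7a1, As3mt, Fmo1, Lap3, Gsr, Atf4, Mtap, Cog6, the marker genes and the near copies of Ahcy and Bhmt were named after their values were seen. A few genes that the rule names are not reported here.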

Additional observations from a re-analysis of the deposited data

Results flagged for a closer look

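In 3 of the 27 sets of 6 mice (9 genes in 3 groups), the highest mouse stood apart from the others by Dixon's test at the 95% level, which chance gives in about 1 of 20 such sets. Bhmt stood at 1077 FPKM in SZ-A4, with a gap to the next mouse of 0.687 of the group's range. Bhmt2 stood at 145 FPKM in NC5, with a gap of 0.690 of the range. Ahcy stood at 752 FPKM in HFD5, with a gap of 0.706 of the range. Without HFD5, NC5 or SZ-A4 in turn, none of these 3 genes changed its call in HFD against NC or in SZ-A against HFD.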

How the results depend on the processing

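Of the 9 genes, the 7 called in HFD against NC were called under every alternative except a fold over 2, which left 3 (Cth, Bhmt and Mat1a) and left 10 of the other pathway genes instead of 28. In SZ-A against NC the 5 genes called became 3 with no filter on low values (Bhmt, Cth and Cbs, with 27266 genes tested) and 1 with a fold over 2 (Cth), and the 15 other pathway genes became 8 and 7. Rescaling to a common FPKM sum called 2 pathway genes in SZ-A against HFD instead of 0 (Hnmt and Mtap). Leaving out each mouse in turn gave 7 to 8, 0 to 0 and 4 to 6 of the 9 genes in HFD against NC, SZ-A against HFD and SZ-A against NC, and 24 to 30, 0 to 1 and 8 to 19 of the other pathway genes (1 without SZ-A2, 9 without SZ-A1 and 8 without SZ-A3).

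Directions reversed for Pemt in HFD against NC, from -0.01 to 0.18 with rescaling, 0.014 with median-ratio scaling, 0.15 with voom on plain totals, 0.016 with voom on median-ratio sizes, and a range of -0.060 to 0.046 over mice left out (0.018 without NC2, 0.046 without HFD6). In SZ-A against HFD, rescaling reversed Cth (-0.11), Cbs (-0.040) and Mat1a (-0.019), and voom on plain totals reversed Cth (-0.043). These settings moved the median log2 fold change of all genes, rescaling to 0.15 and -0.15 and voom on plain totals to 0.12 and -0.09 in HFD against NC and SZ-A against HFD, and turned the split of all calls in HFD against NC from 970 lower and 1092 higher to 334 and 2100 with rescaling. Cdo1 was called in HFD against NC without NC6 (-0.46), and Gnmt in SZ-A against NC with a filter of 5 FPKM, 1 fit of all mice, sample weights and voom on median-ratio sizes.

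Same-numbered mice correlated at -0.117 to 0.292 in their deviations, so the numbers share only a label. With the replicate block, 7, 0 and 4 of the 9 genes were called in the 3 comparisons (Ahcy not called in the last), and 23, 0 and 17 other pathway genes. Depth limits the low genes, such as Mtr and Asns, more than the 9 genes, which were all above 60 FPKM.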
